A study of Homo sapiens with 12 samples.

Results

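The 34 genes described here are direct or widely listed transcriptional targets of p53, found by their symbols among the 60651 genes of a count table from 2 cholangiocarcinoma (CCA) cell lines. Cholangiocarcinoma is a cancer of the bile ducts, and EGI-1 and HUCCT1 are established human lines of it. The question put to these genes was how their RNA moved when the cells received decitabine, talazoparib or both drugs. Decitabine is a cytidine analogue that traps and depletes DNA methyltransferases (DNMTs), and talazoparib inhibits PARP enzymes and traps them on DNA.

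p53 is a transcription factor that is stabilised when DNA is damaged or cells are stressed, and it then raises a set of genes that stop the cell cycle, repair DNA, adjust metabolism or start cell death. MDM2, itself a p53 target, marks p53 for degradation and so closes a negative feedback loop. Many of these genes also answer to other stress pathways.

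HUCCT1 cells were given DMSO vehicle or 1 μM decitabine. EGI-1 cells were given vehicle, 0.5 μM decitabine, 200 nM talazoparib, or both drugs at these doses, which is called the combination below. RNA was collected after 72 h (day 3) from cells in six-well plates, and each of the 6 groups holds 2 libraries. The labels do not say whether the 2 libraries come from separate cultures, so every p-value measures only the spread between them. The names of the talazoparib libraries carry a different number from the labelled 200 nM. Line, decitabine dose and a tag in the library names that the labels do not explain change together and cannot be told apart. Total counts were 23139065 to 33181930 per library in EGI-1 and 32519985 to 34965627 in HUCCT1. All of 7 biliary and epithelial markers had counts in every library. That is no check of the labelled cell type, since 6 or 7 of 10 markers of other cell types had counts in the vehicle libraries too. Between the vehicle cells of the lines, the log2 differences of the 7 ran from -0.75 to 7.42 (HUCCT1 minus EGI-1).

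One library stood apart. EGI-1 combination replicate 2 held transcripts of lymphocytes. PTPRC, the leukocyte surface phosphatase CD45, was at 13.1 CPM there and at most at 0.212 CPM in the other 7 EGI-1 libraries (CPM, counts scaled to a common library size by TMM within each line). CD3E, a subunit of the T cell receptor complex, was at 5.10 CPM there and at most 0.121 CPM elsewhere in EGI-1. The immunoglobulin light chain gene IGKC was at 8.52 CPM there against at most 0.155 CPM. Summed over 14 lymphocyte genes, chosen after their values were seen, that library reached 77.9 CPM, while the other 7 lay between 0.208 and 1.36 CPM. For this reason the counts for the combination, or the median change, are also given without that library. The values of single genes are given too where leaving it out ended a call. The part of these transcripts in the results was not tested.

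**Figure D1:**
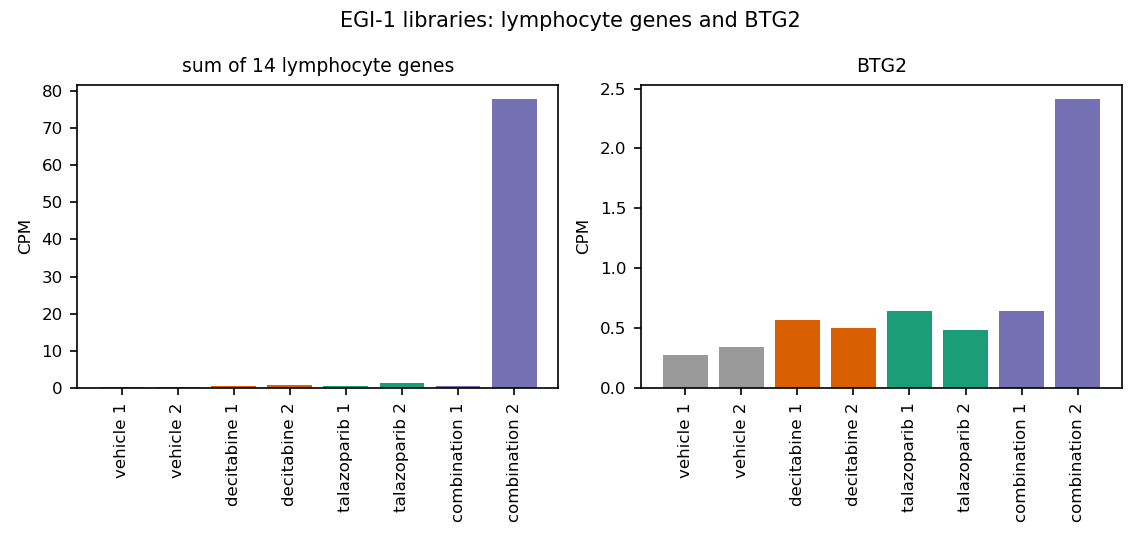
Bars give CPM in each of the 8 EGI-1 libraries for the sum of 14 lymphocyte genes (left) and for BTG2 (right), coloured by group. Combination replicate 2 stands at 77.9 CPM for the lymphocyte sum and at 2.41 CPM for BTG2, above every other EGI-1 library in both panels.

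Since decitabine acts on cytosine methylation and p53 on a sequence element, the promoters of the members were read from RefSeq (GRCh38.p14), 250 bases before to 50 bases after the annotated start. Of the 34 members, 27 had a promoter there. The p53 consensus element of 10 bases, searched on both strands (it is its own reverse complement), was found in 4 of the 27, or 14.8%, against 6.54% of all 27305 promoters and 5.93% of the 15328 protein-coding ones. The full p53 site, which joins a pair of such elements with at most 13 bases between them, was found in 0 of the 27 and in 0.0293% of all promoters. Beside so low a share, 0 of 27 says nothing about these genes. The search allowed no mismatch and read only this window, so p53 sites elsewhere in the genes were not looked for. The 4 promoters are shown because they carry that element in the window itself, with its bases in capitals. The element starts 34 bases before the start of AEN (chr15:88621090-88621389, plus strand), 132 before that of PLK2 (chr5:58460037-58460336, minus strand), 11 before that of FDXR (chr17:74872945-74873244, minus strand) and 59 before that of RPS27L (chr15:63157428-63157727, minus strand). Of these 4 genes, AEN was called in treated cells below and PLK2, FDXR and RPS27L were not.
AEN: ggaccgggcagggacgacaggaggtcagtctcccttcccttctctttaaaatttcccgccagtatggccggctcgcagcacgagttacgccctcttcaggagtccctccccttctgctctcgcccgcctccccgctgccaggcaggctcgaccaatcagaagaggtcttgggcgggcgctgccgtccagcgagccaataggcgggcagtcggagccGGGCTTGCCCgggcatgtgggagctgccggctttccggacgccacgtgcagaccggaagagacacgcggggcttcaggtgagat
PLK2: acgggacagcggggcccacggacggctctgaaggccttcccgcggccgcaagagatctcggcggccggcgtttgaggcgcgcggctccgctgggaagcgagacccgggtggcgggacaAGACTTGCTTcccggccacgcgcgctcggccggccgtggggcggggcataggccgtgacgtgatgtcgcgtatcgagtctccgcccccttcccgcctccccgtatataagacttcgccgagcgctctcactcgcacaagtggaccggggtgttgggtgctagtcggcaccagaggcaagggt
FDXR: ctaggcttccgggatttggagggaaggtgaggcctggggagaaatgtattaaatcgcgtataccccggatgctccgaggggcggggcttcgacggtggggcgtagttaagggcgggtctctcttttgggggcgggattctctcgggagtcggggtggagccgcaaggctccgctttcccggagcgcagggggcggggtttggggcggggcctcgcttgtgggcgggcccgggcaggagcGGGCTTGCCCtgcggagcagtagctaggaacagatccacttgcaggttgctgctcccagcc
RPS27L: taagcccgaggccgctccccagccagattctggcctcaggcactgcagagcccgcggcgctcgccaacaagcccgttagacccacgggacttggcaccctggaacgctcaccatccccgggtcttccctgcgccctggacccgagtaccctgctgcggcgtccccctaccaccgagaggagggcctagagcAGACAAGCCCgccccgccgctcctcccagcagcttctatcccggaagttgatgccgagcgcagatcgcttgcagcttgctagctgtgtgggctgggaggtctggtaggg

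The promoters of the members were rich in CpG, the base pair step that DNMTs methylate. Their median was 28 CpG in the 300 bases, with an observed to expected ratio of 0.804, against 22 and 0.767 for protein-coding promoters. CYFIP2 (chr5:157265873-157266172, plus strand) held 35 and GDF15 (chr19:18385908-18386207, plus strand) held 11, and both are shown with each CpG in capitals because these members differed most in level between the lines among those with counts in both. No methylation was measured in these samples.
CYFIP2: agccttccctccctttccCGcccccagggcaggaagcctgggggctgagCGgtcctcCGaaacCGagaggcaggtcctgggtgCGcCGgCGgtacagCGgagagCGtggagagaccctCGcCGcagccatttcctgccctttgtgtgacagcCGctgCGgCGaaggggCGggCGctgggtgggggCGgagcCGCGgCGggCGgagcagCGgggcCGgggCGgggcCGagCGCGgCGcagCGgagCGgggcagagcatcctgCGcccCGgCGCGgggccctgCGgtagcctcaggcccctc
GDF15: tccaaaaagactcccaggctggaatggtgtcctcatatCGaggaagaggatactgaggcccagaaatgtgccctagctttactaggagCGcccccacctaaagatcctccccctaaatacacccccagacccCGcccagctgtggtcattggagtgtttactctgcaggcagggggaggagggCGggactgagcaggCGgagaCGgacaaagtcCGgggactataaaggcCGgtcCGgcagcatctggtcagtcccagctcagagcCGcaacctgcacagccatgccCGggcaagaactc

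Before any drug, the 34 genes covered a wide range of levels, given here per length of the Ensembl canonical transcript as RPKM on scaling factors common to both lines. PLK2, a kinase of centriole duplication and stress, was the most abundant member in both lines, at 135 RPKM in EGI-1 and 158 RPKM in HUCCT1. In EGI-1 it was followed by GDF15, CCNG1, TNFRSF10B and DDB2, at 89.8, 46.9, 38.5 and 28.1 RPKM. In HUCCT1 the next were DDB2, CCNG1, AEN and TNFRSF10B, at 45.3, 33.1, 22.8 and 21.8 RPKM. MDM2 was at 15.8 RPKM in both lines. EDA2R, a receptor of the TNF family, had no count in any of the 12 libraries, which allows up to 3 counts per library, 0.0858 to 0.13 CPM. SPATA18, a mitochondrial quality factor, had 1 to 7 counts per library. Both were too low to be tested in either line, and CDIP1 was too low in EGI-1, so 31 members were tested in EGI-1 and 32 in HUCCT1.

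Of the 32 members tested between the vehicle cells of both lines, 17 were higher and 9 lower in HUCCT1, beside 28.5% and 27.3% of all 25096 genes (adjusted p under 0.05; here and below, p-values come from the quasi-likelihood test of edgeR and were adjusted by the Benjamini-Hochberg method). With upper-quartile scaling, which moved the median log2 difference of all genes from -0.01 to -0.13, the split was 15 and 10. CYFIP2, a subunit of the WAVE actin regulator, had 29 and 28 counts in HUCCT1 vehicle against 1093 and 991 in EGI-1 vehicle, a log2 difference of -5.24 ± 0.16 (standard error, as for every ± on a log2 value; adjusted p = 8.35e-17). GDF15, a secreted stress cytokine, was at 8.57 and 8.07 CPM in HUCCT1 and at 111 and 104 CPM in EGI-1 on the common scale, a log2 difference of -3.69 ± 0.15 (adjusted p = 7.01e-13). DRAM1, TP53INP1 and TNFRSF10B were also lower in HUCCT1, by log2 differences of -1.60, -0.90 and -0.82. In the other direction, CDIP1 had 16 and 22 counts in HUCCT1 and none in either EGI-1 vehicle library. It passed the count filter only through the HUCCT1 libraries. CDIP1 could thus hardly have been called lower there, and its part in the count of 17 is no test. TNFRSF10C, BTG2, SESN2 and RPS27L were higher in HUCCT1 by 3.44, 2.64, 1.80 and 1.40 on the log2 scale. However, TNFRSF10C and BTG2 rested on 4 to 9 counts in EGI-1. A noncoding and a protein-coding gene share 16.9% and 16.1% of the exon length of TNFRSF10C on the same strand, so its counts are uncertain. MDM2 did not differ by this test, with a log2 difference of 0.01 and a 95% interval from -0.16 to 0.18. The calls for PLK2 and TRIAP1 were the only 2 of the 26 lost under any of the 9 alternatives.

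Decitabine in HUCCT1 moved many members, and mostly upward. In these bulk samples, a change in the share of cells that hold an RNA and a change in its amount per cell cannot be told apart. Of 32 tested, 11 rose and 3 fell, 34.4% and 9.38%, beside 19.6% of all 22479 genes called higher and 13.9% called lower. The median log2 fold change of the members was 0.14 and that of all genes 0.00. The same was counted among genes at a mean of 10 CPM or more, a limit chosen after the data were seen. There 9 of 23 members were called higher, 39.1%, beside 16.6% of all such genes, and 3 lower, beside 22.6%. The combination in EGI-1 gave a like count. It raised 12 of 31 members, 38.7%, and lowered none, beside 11.1% of 22406 genes called higher and 7.61% called lower. Without adjustment, 14 members were higher and 2 lower at a p under 0.05, beside 16.3% and 14.6% of all genes, and DESeq2 called 11 higher and 0 lower. The members' median was 0.18 against -0.02 for all genes. At 10 CPM or more, 10 of 24 members were called higher, 41.7%, beside 17.4% of all such genes, and 0 lower by edgeR, beside 12%.

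Without combination replicate 2, the combination raised 6 members in place of 12, beside 6.88% of genes called higher and 3.85% called lower, and 10 were higher and 2 lower at an unadjusted p under 0.05, beside 13.2% and 11% of all genes. The 6 were PLK3, SUSD6, TP53INP1, AEN, GADD45A and ZMAT3. Fewer members were also called when another of the 4 libraries was left out. Over the 31 members tested, the median log2 fold change was 0.183 with all libraries. It was 0.159 without vehicle replicate 1 and 0.184 without vehicle replicate 2. Without combination replicate 1 it was 0.225, and without combination replicate 2 it was 0.134. Leaving out either vehicle library ended the calls of BTG2 and GADD45A, while over all leave-outs the log2 fold change of GADD45A lay between 0.38 and 0.41 and that of BTG2 between 1.05 and 2.95, TP53INP1 was not called without vehicle replicate 2 (adjusted p = 0.0505), and SESN2, PHLDA3, CYFIP2 and TNFRSF10B were lost when any 1 of the 4 libraries was left out. PLK3, ZMAT3, SUSD6 and AEN were called under all 12 alternatives. When only the 4 libraries compared were fitted, 13 members were called higher and 3, DDB2, DRAM1 and GDF15, lower. With upper-quartile scaling, 9 members were called higher and 2, DDB2 and DRAM1, lower, while over all genes the calls went from 2489 higher and 1705 lower (59.3% higher) to 2177 and 2244 (49.2% higher).

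**Figure D2:**
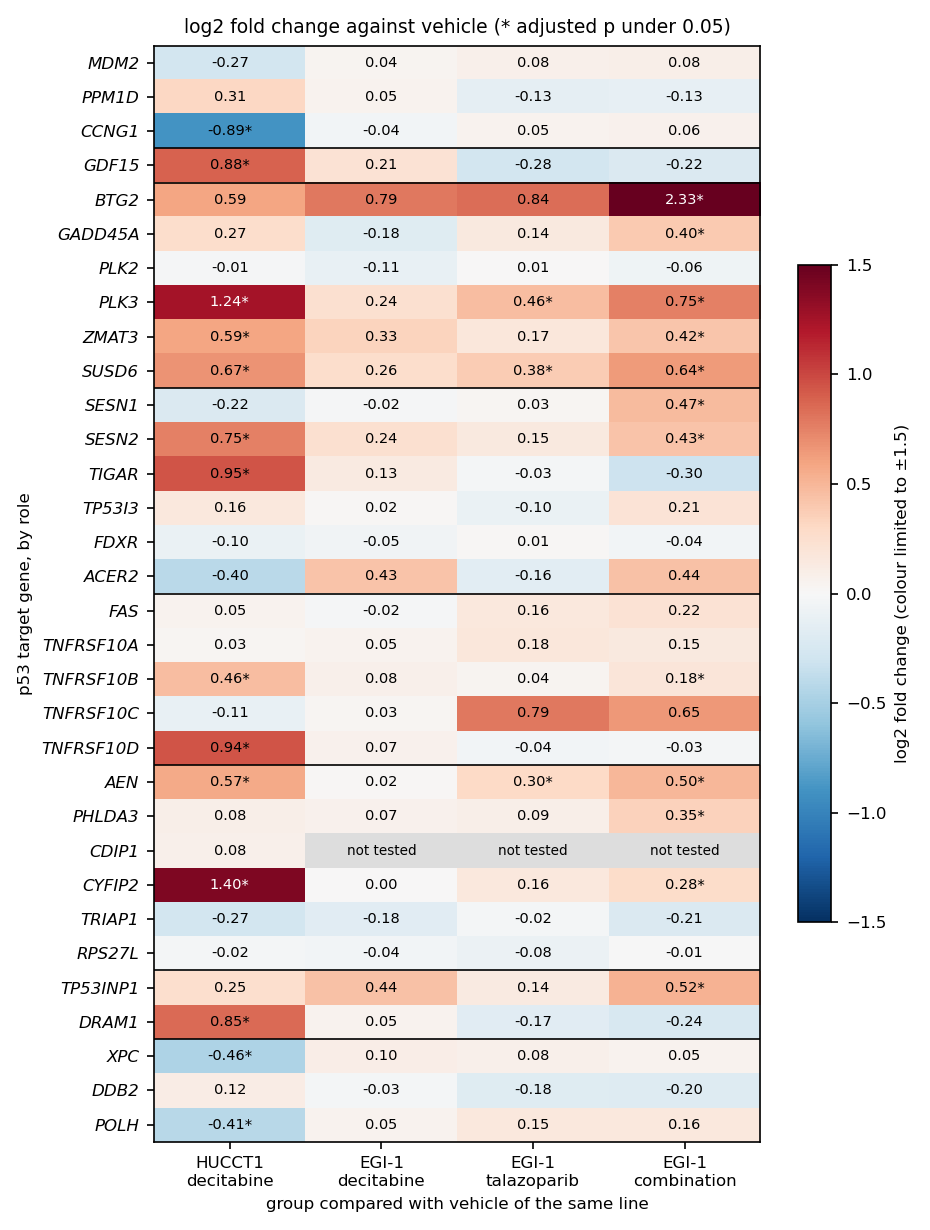
Each cell gives the log2 fold change of a p53 target gene against vehicle of the same line, with rows ordered by role and an asterisk at an adjusted p under 0.05. HUCCT1 decitabine and EGI-1 combination carry 14 and 12 asterisks, EGI-1 talazoparib 3 and EGI-1 decitabine none.

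Either drug alone moved few members in EGI-1. Decitabine at 0.5 μM gave 0 calls among 31 members by edgeR, beside 0.518% of all genes called higher and 0.0268% called lower. Without adjustment, 5 members were higher at a p under 0.05, beside 6.03% of all genes, and DESeq2 also called 0. These 5 were ZMAT3, TP53INP1, SUSD6, PLK3 and ACER2, with log2 fold changes of 0.33, 0.44, 0.26, 0.24 and 0.43. When decitabine replicate 1 was left out, 3 members were called. Talazoparib raised PLK3, SUSD6 and AEN, 3 of 31, beside 2.83% of genes called higher and 1.29% called lower. That count fell to 0 without either vehicle library or without talazoparib replicate 1.

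The 3 inhibitors of p53 that p53 itself induces were not called higher in any treatment. Of all genes, 19.6% were called higher with decitabine in HUCCT1. In EGI-1 the shares were 0.518% with decitabine, 2.83% with talazoparib and 11.1% with the combination. For only 3 genes, no call is near these shares. MDM2, the ubiquitin ligase of p53, was at 115 and 99.7 CPM in HUCCT1 vehicle and 91.5 and 85.8 CPM after decitabine, with the groups apart but a log2 fold change of -0.27 ± 0.11 that was not called (adjusted p = 0.0586). In EGI-1 it was at 127 and 122 CPM with vehicle and 129 and 135 CPM with the combination, a log2 fold change of 0.08 with a 95% interval from -0.06 to 0.23. CCNG1, the cyclin G1 that recruits a phosphatase to MDM2, was at 87.8 and 58.7 CPM in HUCCT1 vehicle and at 44.3 and 34.7 CPM after decitabine. It fell by 0.89 ± 0.18 on the log2 scale (adjusted p = 0.00362), and by 0.59 without vehicle replicate 1. In EGI-1, CCNG1 with the combination spanned 111 and 141 CPM around the 122 and 119 CPM of vehicle, and its uncalled log2 fold change went from 0.06 to -0.12 without combination replicate 2. PPM1D, the phosphatase WIP1 that switches the damage response off, had log2 fold changes of 0.31 in HUCCT1 and -0.13 with the combination, neither of them called.

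GDF15, often used as a circulating marker of cell stress, stood at unlike levels in the lines. In HUCCT1 it was at 7.80 and 7.24 CPM with vehicle and 12.2 and 15.6 CPM with decitabine, and it rose by 0.88 ± 0.16 on the log2 scale (adjusted p = 7.35e-05). In EGI-1, where its level was far higher, it was at 117 and 109.8 CPM with vehicle and 102 and 93.3 CPM with the combination. These EGI-1 groups did not overlap, but the log2 fold change of -0.22 ± 0.12 was not called. Decitabine alone in EGI-1 gave 0.21 ± 0.12, in the same direction as in HUCCT1, and talazoparib alone gave -0.28 ± 0.12. Neither was called.

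Of the 6 genes that restrain cell growth, 3 rose with decitabine in HUCCT1, where 19.6% of all genes were called higher, and 5 with the combination in EGI-1, where 11.1% were. Without combination replicate 2 the 5 became 4, as BTG2 was no longer called, and BTG2 and GADD45A were not called without either vehicle library. PLK3, a polo-like kinase activated by DNA damage and other stress, rose in both. It was at 24.2 and 25.2 CPM in HUCCT1 vehicle and at 55.9 and 61.03 CPM after decitabine, a 2.37-fold rise (log2 1.24 ± 0.12, adjusted p = 4.89e-09). In EGI-1 it stood at 18.4 and 17.8 CPM with vehicle, 20.4 and 22.4 with decitabine, 27.1 and 23.05 with talazoparib, and 31.8 and 29.4 with the combination. The 4 EGI-1 groups thus lay in ascending order without overlap, and the combination was 1.69-fold above vehicle (log2 0.75 ± 0.10, adjusted p = 4.26e-05). Talazoparib alone raised PLK3 by 0.46 ± 0.10 (adjusted p = 0.0118).

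SUSD6, a membrane protein whose gene slows growth when p53 or drugs induce it, followed the same order. It was at 60.6 and 63.97 CPM in HUCCT1 vehicle and 98.5 and 100.1 CPM after decitabine (log2 0.67 ± 0.11, adjusted p = 2.24e-05). In EGI-1 it went from 44.5 and 43.5 CPM with vehicle to 51.0 and 54.7 with decitabine, 58.0 and 56.2 with talazoparib, and 67.5 and 69.1 with the combination. Again no library of a group overlapped the next, and the combination was 1.55-fold above vehicle (log2 0.64 ± 0.07, adjusted p = 5.16e-06). Talazoparib alone raised it by 0.38 ± 0.07 (adjusted p = 0.00377).

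ZMAT3, an RNA-binding zinc finger protein that adjusts splicing, was at 26.7 and 26.4 CPM in HUCCT1 vehicle and 41.5 and 38.5 CPM after decitabine (log2 0.59 ± 0.12, adjusted p = 2.65e-04). EGI-1 gave 28.0 and 28.5 CPM with vehicle and 36.9 and 38.7 CPM with the combination (log2 0.42 ± 0.08, adjusted p = 0.00173). Its decitabine libraries in EGI-1, at 36.2 and 35.1 CPM, lay close to the combination, although that single-drug change was not called (log2 0.33, adjusted p = 0.098). GADD45A, a stress sensor that binds PCNA and feeds p38 and JNK signalling, took another course. It was at 20.03 and 20.3 CPM with vehicle, 18.2 and 17.5 with decitabine, 22.6 and 21.9 with talazoparib, and 26.4 and 26.7 with the combination in EGI-1. The combination raised it by 0.40 ± 0.09 (adjusted p = 0.00439), and the decitabine libraries lay below vehicle without a call. In HUCCT1 its log2 fold change of 0.27 was not called.

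BTG2, an antiproliferative factor that recruits the CCR4-NOT deadenylase and is abundant in resting lymphocytes, had the largest value and the least secure one. Its counts in EGI-1 were 8 and 9 with vehicle, 16 and 13 with decitabine, 15 and 16 with talazoparib, and 15 and 70 with the combination. The log2 fold change of 2.33 ± 0.53 (adjusted p = 0.00546) became 1.05 ± 0.57 (adjusted p = 0.28) without combination replicate 2, the library with the lymphocyte transcripts. In HUCCT1, BTG2 had 58 and 54 counts with vehicle and 88 and 85 with decitabine, a log2 fold change of 0.59 that was not called (adjusted p = 0.0757). PLK2 was between 383 and 406 CPM in HUCCT1 and between 356 and 403 CPM in EGI-1, with log2 fold changes from -0.11 to 0.01 against vehicle and no call.

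**Figure D3:**
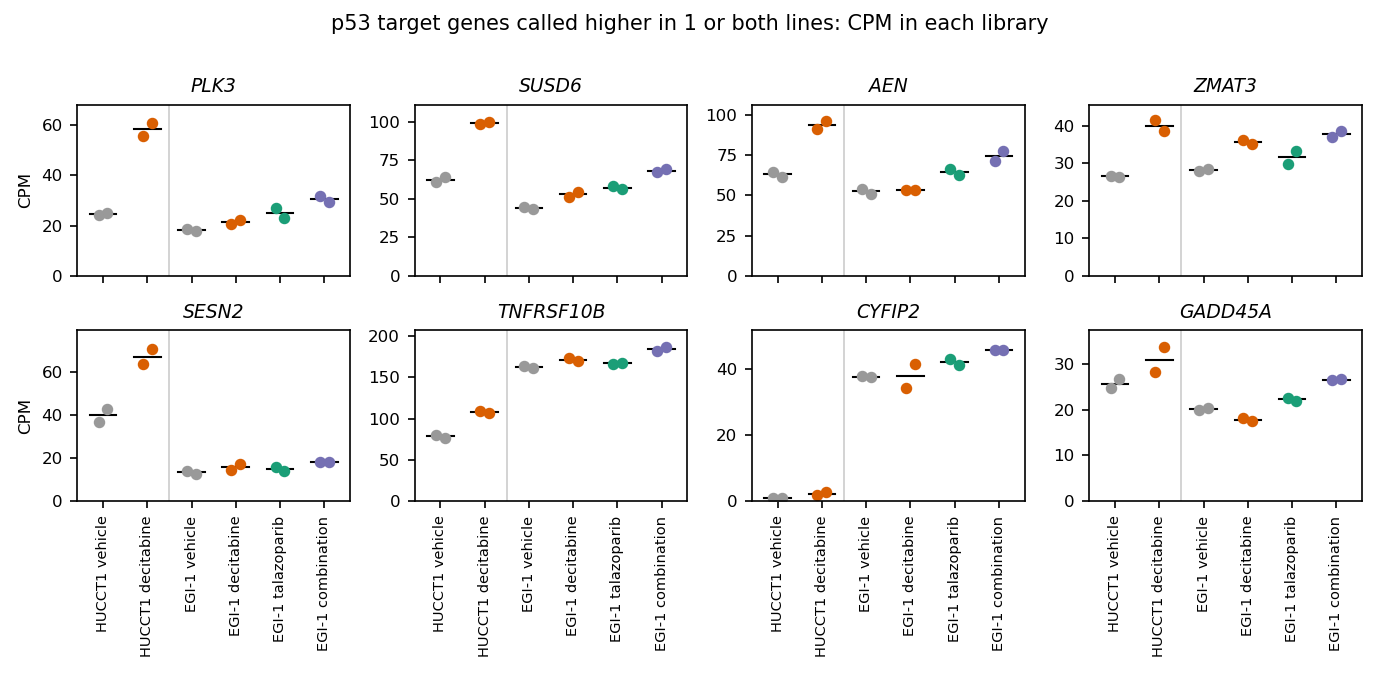
Points give CPM in each library of the 6 groups for 8 members, and lines give the mean of 2 libraries; CPM was scaled within each line, so levels are compared within a line only. For PLK3, SUSD6 and AEN both combination libraries lie above all 6 other EGI-1 libraries, and both HUCCT1 decitabine libraries lie above both vehicle libraries.

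Among the metabolic genes, SESN2 rose in both lines. Sestrins hold back mTORC1 when amino acids are short and protect from oxidants. SESN2 was at 36.8 and 43.1 CPM in HUCCT1 vehicle and 63.8 and 70.8 CPM after decitabine (log2 0.75 ± 0.12, adjusted p = 1.43e-05). EGI-1 gave 13.999 and 12.8 CPM with vehicle and 18.0 and 18.2 CPM with the combination (log2 0.43 ± 0.12, adjusted p = 0.0145), and without combination replicate 2 the change of 0.42 was no longer called (adjusted p = 0.0779). SESN1 was called with the combination, at 4.92 and 4.66 CPM with vehicle and 6.01 and 7.28 CPM with both drugs (log2 0.47 ± 0.16, adjusted p = 0.0485). Without combination replicate 2 its change was 0.33 (adjusted p = 0.339), and the call was kept in only 3 of 12 alternatives, with DESeq2 and upper-quartile scaling among those that lost it.

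TIGAR, a phosphatase that lowers fructose-2,6-bisphosphate and so slows glycolysis, was called in HUCCT1 with decitabine and in no EGI-1 comparison. It was at 9.09 and 8.27 CPM with vehicle and 16.7 and 16.8 CPM with decitabine (log2 0.95 ± 0.14, adjusted p = 7.77e-06). EGI-1 gave 5.82 and 5.15 CPM with vehicle and 3.99 and 4.86 CPM with the combination, a log2 fold change of -0.30 ± 0.16 that was not called. It was -0.46 without combination replicate 2 (adjusted p = 0.183). A readthrough gene shares 18.1% of the exon length of TIGAR on the same strand, so its counts are uncertain. The ceramidase ACER2 had log2 fold changes of -0.40 in HUCCT1 and 0.44 with the combination, and TP53I3 and FDXR, enzymes of quinone and electron transfer, lay between -0.10 and 0.21 in all 4 comparisons with vehicle. None of the 3 was called.

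The death receptors of the TNF family moved unevenly. TNFRSF10B, the TRAIL receptor DR5 that signals death, was at 80.5 and 76.6 CPM in HUCCT1 vehicle and 109.8 and 107 CPM after decitabine (log2 0.46 ± 0.11, adjusted p = 0.00139). In EGI-1 it was at 163.7 and 160.9 CPM with vehicle and 182 and 186 CPM with the combination, a small rise (log2 0.18 ± 0.06, adjusted p = 0.0304) that was not called without combination replicate 2 (0.17, adjusted p = 0.159) and was kept in 3 of 12 alternatives, lost among others under both replicate blocks and upper-quartile scaling. TNFRSF10D, a TRAIL receptor with a truncated death domain that acts as a decoy, rose more in HUCCT1, from 36.2 and 37.6 CPM to 71.2 and 70.3 CPM (log2 0.94 ± 0.11, adjusted p = 2.38e-07). In EGI-1 TNFRSF10D was at 60.5 and 61.2 CPM with vehicle and 62.2 and 57.4 CPM with the combination, with overlap. FAS and TNFRSF10A, the receptors for FAS ligand and TRAIL, had log2 fold changes between -0.02 and 0.22 and no call, and with the combination FAS went from 0.22 to -0.05 when replicate 2 was left out. TNFRSF10C had at most 11 counts in any EGI-1 library.

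Of the intracellular death and survival factors, AEN, a nuclease that digests DNA and RNA in apoptosis, moved most steadily. It was at 64.8 and 61.5 CPM in HUCCT1 vehicle and 91.4 and 96.3 CPM after decitabine (log2 0.57 ± 0.11, adjusted p = 1.76e-04). In EGI-1 vehicle gave 54.1 and 50.8 CPM, decitabine 53.3 and 53.3, talazoparib 66.7 and 62.9, and the combination 71.3 and 77.3. Decitabine libraries of EGI-1 lay within the range of vehicle, talazoparib lay above both (log2 0.30 ± 0.07, adjusted p = 0.0203) and the combination above all (log2 0.50 ± 0.07, adjusted p = 8.24e-05). The talazoparib call of AEN was kept in 7 of 12 alternatives, and it was lost when any 1 of its 4 libraries was left out and under the replicate block by title number (adjusted p up to 0.365).

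CYFIP2 had 29 and 28 counts in HUCCT1 vehicle and 67 and 87 after decitabine, the largest fold among the members in that line (2.64-fold, log2 1.40 ± 0.30, adjusted p = 7.44e-04). In EGI-1, where it had 970 to 1359 counts per library, it rose from 37.9 and 37.5 CPM to 45.7 and 45.7 CPM with the combination (log2 0.28 ± 0.09, adjusted p = 0.0348), a call lost without combination replicate 2 (0.28, adjusted p = 0.135) and kept in 4 of 12 alternatives, lost among others under both replicate blocks and upper-quartile scaling. PHLDA3, which competes with AKT for the membrane, was at 34.0 and 32.7 CPM with vehicle and 43.0 and 41.8 CPM with the combination in EGI-1 (log2 0.35 ± 0.09, adjusted p = 0.0127), and without combination replicate 2 its change of 0.37 had an adjusted p of 0.0542. A noncoding gene shares 18.4% of the exon length of PHLDA3 on the same strand. TRIAP1, a survival factor of mitochondria, and RPS27L, a ribosomal protein relative that binds MDM2, had log2 fold changes between -0.27 and -0.01 in the 4 comparisons and no call.

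Of the autophagy genes, DRAM1 was called in HUCCT1 and TP53INP1 in EGI-1. DRAM1, a lysosomal membrane protein, was at 6.48 and 7.36 CPM in HUCCT1 vehicle and 11.7 and 13.3 CPM after decitabine (log2 0.85 ± 0.16, adjusted p = 1.11e-04). EGI-1 gave 24.3 and 24.8 CPM with vehicle and 21.2 and 20.4 CPM with the combination, a log2 fold change of -0.24 that was not called (adjusted p = 0.0701) but was with upper-quartile scaling (-0.28, adjusted p = 0.038). TP53INP1, a cofactor of p53 that also binds autophagy proteins, was at 12.5 and 11.9 CPM with vehicle, 15.5 and 17.7 with decitabine, 13.2 and 13.8 with talazoparib and 16.9 and 18.3 with the combination in EGI-1. The combination change was called (log2 0.52 ± 0.11, adjusted p = 0.00255) and the decitabine change of 0.44 was not (adjusted p = 0.0964). In HUCCT1 its log2 fold change was 0.25 without a call.

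Of the 3 DNA repair genes, 2 fell in HUCCT1. There 13.9% of all genes were called lower, and 22.6% of genes at a mean of 10 CPM or more. A list of 3 genes is too short to set against these shares. XPC, which recognises bulky damage, was at 13.7 and 14.7 CPM in HUCCT1 vehicle and 10.2 and 10.5 CPM after decitabine, and it fell by 0.46 ± 0.14 on the log2 scale (adjusted p = 0.0125). An antisense gene shares 24.6% of the exon length of XPC, and strand use in counting is not given in the sources used here, so its counts may include antisense reads. POLH, the polymerase that copies past ultraviolet lesions, went from 25.2 and 27.2 CPM to 20.8 and 18.5 CPM and fell by 0.41 ± 0.13 (adjusted p = 0.0123). These were the only 2 of the 14 HUCCT1 calls that were lost under any of the 10 alternatives, each in 2 of them. XPC was not called without decitabine replicate 1 or vehicle replicate 2, and POLH without vehicle replicate 2 or decitabine replicate 2, with adjusted p-values up to 0.0724 and 0.138. DDB2, which brings XPC to ultraviolet damage, had log2 fold changes of 0.12 in HUCCT1 and -0.20 with the combination, and none of the 3 was called in EGI-1, although for the combination DDB2 was called lower with upper-quartile scaling (-0.23, adjusted p = 0.0274). When only the 4 libraries compared were fitted, DDB2 was called lower (-0.18, adjusted p = 0.0297) and POLH higher (0.17, adjusted p = 0.0442).

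**Figure D4:**
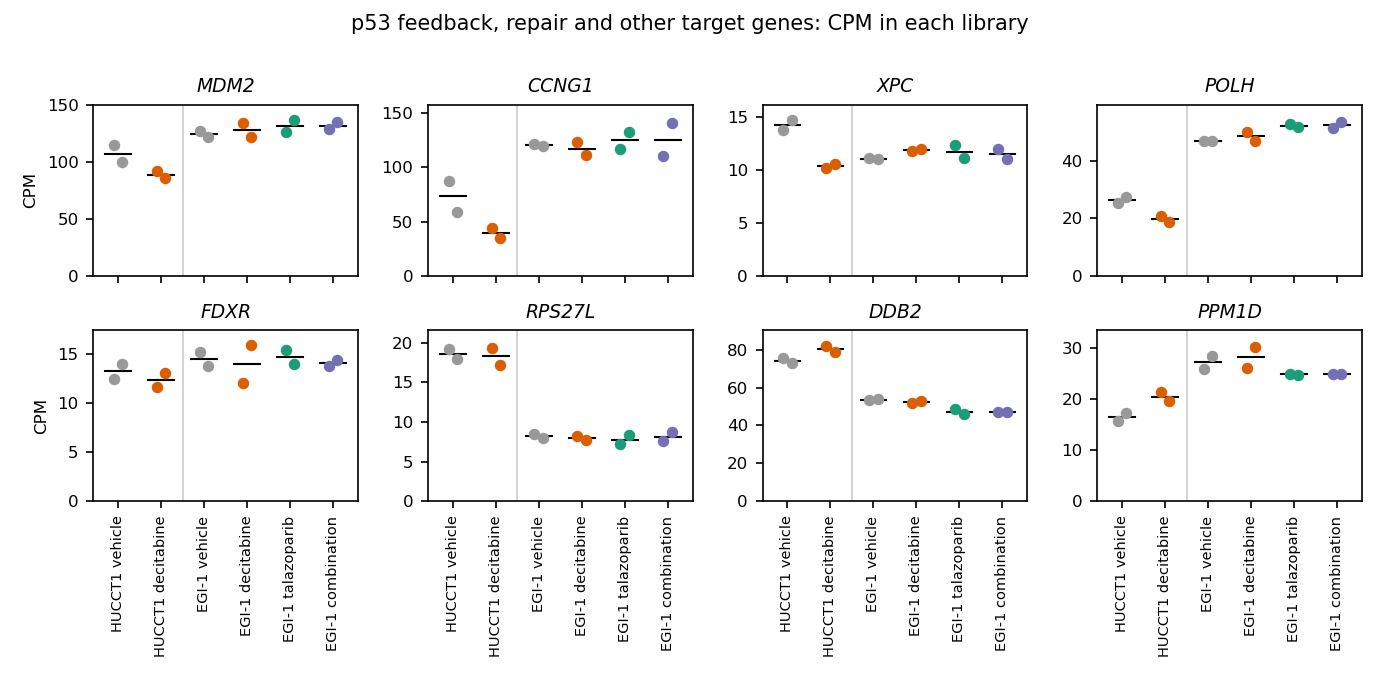
Points give CPM in each library for 8 feedback, repair and other members, and lines give the mean of 2 libraries; CPM was scaled within each line. CCNG1, XPC and POLH lie lower after decitabine in HUCCT1, and in EGI-1 none of the 8 genes was called in any comparison with vehicle.

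The combination in EGI-1 was also set against each single drug. Over decitabine alone, 4 members were higher, namely GADD45A, PLK3, AEN and SUSD6, with log2 differences of 0.58, 0.52, 0.48 and 0.37, and 0 were lower by edgeR or DESeq2. At an unadjusted p under 0.05, 4 were lower by edgeR and 2 by DESeq2, beside 10.1% of all genes by edgeR. GDF15 was called lower than with decitabine when no low-count filter was used (-0.43) and without decitabine replicate 1 (-0.62). All genes gave 4.42% higher and 3.26% lower calls. The members' median log2 difference over decitabine was 0.098, and 0.054 without combination replicate 2. All 4 calls held under the 12 alternatives. Over talazoparib alone, 0 of 31 members were called by edgeR or by DESeq2, beside 1.36% of genes higher and 0.567% lower, while 13 members, and 7.65% of all genes, were higher at an unadjusted p under 0.05. The members' median log2 difference over talazoparib was 0.06, and 0.07 without combination replicate 2. SUSD6 came closest, with a log2 difference of 0.26 ± 0.07 (adjusted p = 0.0675). Whether the combined drugs moved a gene by more or less than both log2 effects added up was tested as well, and this was called in 0 members by edgeR and by DESeq2, beside 0.00893% of genes above the sum and 0.152% below it. GADD45A was the 1 member of 31 with an unadjusted p under 0.05, at 0.43 ± 0.13 above the sum (adjusted p = 0.987), beside 1.39% of all genes above and 1.99% below the sum at that threshold, so 1 member is near the background. For PLK3 and SUSD6 the distance from that sum was 0.05 and -0.0035, with 95% intervals from -0.25 to 0.35 and from -0.21 to 0.20. The members' median distance from the sum was 0.02, and -0.03 without combination replicate 2. These comparisons share libraries with those against vehicle.

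The decitabine effects of the lines were set against each other in a model of all 12 libraries. The effect was higher in HUCCT1 for 11 of 32 members and lower for 3, beside 8.74% and 7.2% of 25096 genes. CYFIP2, PLK3, TNFRSF10D, DRAM1 and AEN kept that call under all 13 alternatives, with differences of 1.41, 1.02, 0.89, 0.81 and 0.57 on the log2 scale. The dose was 1 μM in HUCCT1 and 0.5 μM in EGI-1, so the values compare these treatments and not the lines at a matched dose. The count of 14 fell to 5 without EGI-1 vehicle replicate 1 and to 9 without EGI-1 vehicle replicate 2, EGI-1 decitabine replicate 1 or HUCCT1 decitabine replicate 2.

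**Figure D5:**
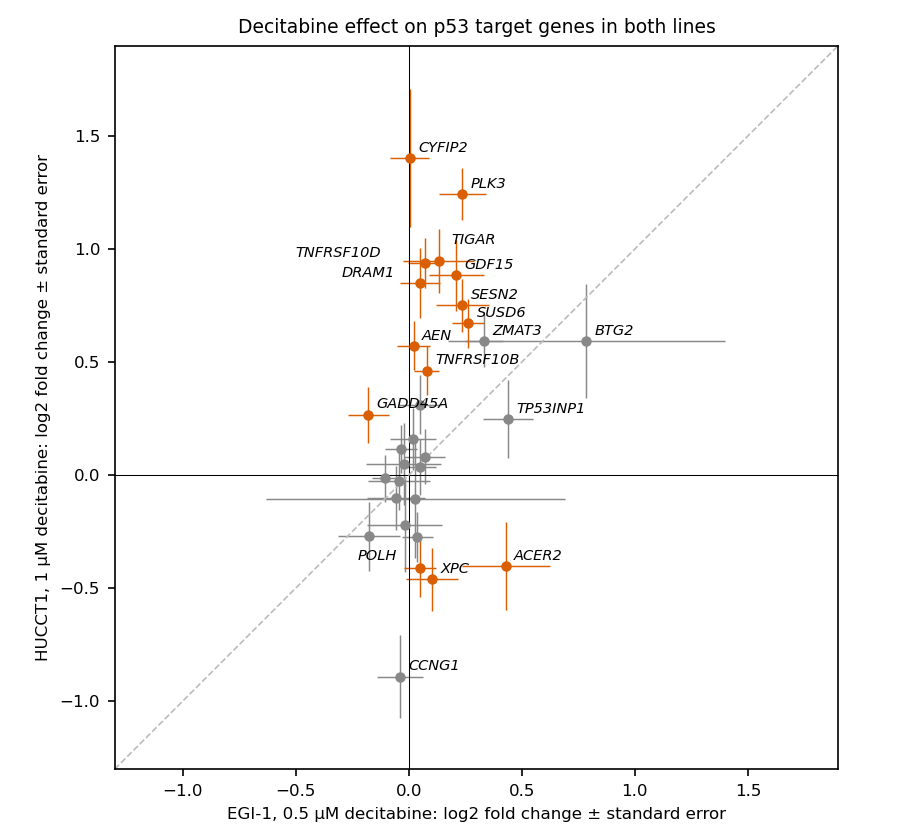
Each point is a member, with its decitabine log2 fold change in EGI-1 (0.5 μM) on the x axis and in HUCCT1 (1 μM) on the y axis, bars giving standard errors and the dashed line equal effects. Orange marks the 14 members whose effects differed between the lines at an adjusted p under 0.05, 11 of them higher and 3 lower in HUCCT1.

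The calls in HUCCT1 with decitabine and in EGI-1 with the combination rest on separate libraries. They shared 7 members called higher, 63.6% of the 11 and 58.3% of the 12, namely AEN, CYFIP2, PLK3, SESN2, SUSD6, TNFRSF10B and ZMAT3. Over all genes, 1059 were called higher in both, 24% of the 4404 in HUCCT1 and 42.5% of the 2489 in EGI-1. Of the 7, AEN, PLK3, SUSD6 and ZMAT3 were also called in EGI-1 without combination replicate 2, and CYFIP2, SESN2 and TNFRSF10B were not.

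Of 25 listed genes that control p53 or belong to its family, 2 rose and 10 fell in HUCCT1, beside 19.6% of all genes called higher and 13.9% lower. TP63 rose by 1.99 ± 0.27 and RCHY1 by 0.64, while TP73, HIPK2 and ATR fell by 1.13, 0.90 and 0.54. In EGI-1 the combination raised 1 of 24 and lowered 8, beside 11.1% and 7.61% of all genes, and without combination replicate 2 the counts were 0 and 8. MDM4, the partner of MDM2 that blocks p53, fell by 0.78 ± 0.08 (adjusted p = 1.94e-06), followed by KAT5 with 0.51, WRAP53 and HIPK2 with 0.35 each and CHEK1 with 0.30. Decitabine alone called 0 of these 24 in EGI-1, beside 0.518% of all genes called higher and 0.0268% lower. Talazoparib alone raised 0 and lowered 2 of the 24, 8.33%, beside 2.83% and 1.29% of all genes.

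CDKN1A, the p21 inhibitor of cyclin-dependent kinases and the best known p53 target, is not among the 34. It was at 106 and 126 CPM in HUCCT1 vehicle and 166.5 and 196 CPM after decitabine (log2 0.64 ± 0.12, adjusted p = 9.87e-05). In EGI-1 it stood at 69.7 and 69.0 CPM with vehicle, 103 and 85.8 with decitabine, 92.0 and 89.5 with talazoparib, and 149 and 147 with the combination. The combination raised it by 1.09 ± 0.08 (adjusted p = 2.16e-08), and it was called with each drug alone, at 0.44 and 0.39. The rise was 1.11 without combination replicate 2. Of 50 other listed p53 targets including CDKN1A, 16 of the 47 tested rose and 11 fell in HUCCT1, beside 19.6% and 13.9% of all genes, with TP53I11 at 1.89, PLTP at 1.71, PRDM1 at 1.26, HES2 at 1.17 and TLR3 at -1.97. With the combination, 10 of 49 rose and 5 fell, beside 11.1% and 7.61% of all genes, led by HES2 at 1.71, PLTP and PRDM1 at 1.31, CDKN1A, and the growth factor gene PGF at 0.98. Without combination replicate 2, 7 rose and 2 fell, and HES2 (1.5, adjusted p = 0.0657) and PLTP (1.20, adjusted p = 0.093) were not called.

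Genes that are lowered through p21 and the DREAM repressor formed a list of 20 cell cycle genes. In HUCCT1, 16 of the 20 fell after decitabine, beside 13.9% of all genes and 22.6% of genes at a mean of 10 CPM or more. Among them, MCM5, CDC25C, CCNB2, PLK1 and TOP2A were at -0.87, -0.75, -0.66, -0.64 and -0.63. With the combination in EGI-1, 7 fell and 1 rose, beside 7.61% and 11.1% of all genes, with MCM5 at -0.80, CDC20 at -0.43, KIF20A and E2F1 at -0.34 each, and CDC25A at 0.37. Leaving out combination replicate 2 gave 5 that fell and 1 that rose, and E2F1 was not called (-0.28, adjusted p = 0.156). Decitabine alone and talazoparib alone each lowered 1 of the 20, CDC20 and MCM5, beside 0.0268% and 1.29% of all genes.

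Markers of other cells also moved with the drugs. Of 10 markers of leukocytes, endothelium, fibroblasts and hepatocytes, 5 were tested in HUCCT1 and the rest were too low. All 5 were called higher with decitabine, beside 19.6% of all genes. CDH5, COL1A1 and PECAM1 rose by 4.81, 2.62 and 2.41 on the log2 scale. COL1A2 went from 1 count in each vehicle library to 60 and 46 counts, and CD3E from 0 and 1 to 17 and 23 counts. COL1A2 and CD3E passed the count filter only through their decitabine libraries. They could thus hardly have been called lower, and their part in the count of 5 is no test. The leukocyte marker PTPRC stayed at 3 or 4 counts in all 4 HUCCT1 libraries, and the hepatocyte markers ALB and APOA2 had 0 counts in vehicle and at most 2 after decitabine. The summed level of the 10 in HUCCT1 went from 25.5 and 27.7 CPM to 157 and 182 CPM. In EGI-1 the sum was 50.2 to 51.0 CPM with vehicle and 74.7 to 88.5 CPM with the combination, and COL1A1 and CDH5 were called, CDH5 no longer without combination replicate 2 (0.29, adjusted p = 0.227). Of the 7 biliary and epithelial markers, 4 fell and 1 rose in HUCCT1, beside 13.9% and 19.6% of all genes, and 2 were not called. The biliary keratins KRT18, KRT8, KRT7 and KRT19 fell by 0.90, 0.82, 0.69 and 0.59, while CDH1 rose by 0.73. In EGI-1 the combination raised 3 of the 7, SOX9, KRT7 and KRT8, and lowered 0, beside 11.1% and 7.61% of all genes. The 3 rose by 0.93, 0.70 and 0.18, and by 0.94, 0.76 and 0.19 without combination replicate 2. The part of these changes in the values of the p53 target genes was not tested.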

How the data were processed

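RNA sequencing of 12 libraries was analysed from the table of raw counts per gene that the authors deposited, with no normalization. The submitters' notes name fastp, Trim Galore, HISAT2, featureCounts and GRCh38, whereas the methods describe EGI-1 only and name STAR, RSEM and another RNA isolation kit. The annotation, strand use and treatment of multi-mapped reads are not given in the sources used here. Ensembl identifiers were matched to symbols with GENCODE 44 (214 of 60651 without a match), which also gave transcript lengths. The 34 members and all lists were chosen with earlier results of these data known.

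Counts were fitted with edgeR 4.0.16 in R 4.3.3 (filterByExpr by group, TMM, robust quasi-likelihood test, Benjamini-Hochberg adjustment over all genes tested, two-sided, threshold 0.05), with the 8 EGI-1 libraries in 1 model (22406 genes), the 4 HUCCT1 libraries in another (22479) and all 12 for comparisons between lines (25096). The smallest count asked by the filter was 10. Alternatives were RLE and upper-quartile scaling, no filter, DESeq2 1.42.0, replicate blocks, other sets of libraries and leaving out each library. Replicates differed by more than counting noise (chi-square per gene 2.73 to 12.6). All members are given; of other lists, at most 5 called genes per comparison are named, plus CDKN1A; 1 further gene under that rule is not reported here. On simulated data, the EGI-1 combination test recovered 75 of 100 genes set to a 2-fold change and 58 of 100 set to 1.5-fold. It made 13 false calls among 21903 genes. The HUCCT1 test recovered 73 and 49 of 100, with 10 false calls among 21678. The changed genes were drawn from those at a mean of 1 CPM or more. They were a far smaller share of genes than was called in the data, so these rates need not hold there.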

Additional observations from a re-analysis of the deposited data

Results flagged for a closer look

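For 14 members the decitabine effect differed between the lines, by the test of the difference itself (edgeR, adjusted p under 0.05). Line, dose and a tag in the library names cannot be told apart in it. The effect, in HUCCT1 minus EGI-1 on the log2 scale, was higher in HUCCT1 for CYFIP2 (1.41), PLK3 (1.02), TNFRSF10D (0.885), TIGAR (0.833), DRAM1 (0.814), GDF15 (0.689), AEN (0.566), SESN2 (0.531), GADD45A (0.463), SUSD6 (0.426) and TNFRSF10B (0.4). It was lower in HUCCT1 for ACER2 (-0.814), XPC (-0.547) and POLH (-0.444). ACER2 and GADD45A were called in neither line alone. Their effects had opposite signs in the lines, -0.40 against 0.43 for ACER2 and 0.27 against -0.18 for GADD45A, and each difference was called in only 5 of the 13 alternatives. GDF15 kept its difference in 7 of the 13 and lost it under the replicate block by title number, and SESN2, XPC and POLH kept theirs in 8. Without EGI-1 vehicle replicate 1, the difference was called higher in HUCCT1 for 5 members and lower for 0 by edgeR, and without EGI-1 vehicle replicate 2 for 9 and 0.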

How the results depend on the processing

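No called member changed direction in any alternative. Without a low-count filter, members called went from 4 to 8 (7 higher, 1 lower) for the combination against decitabine, from 0 to 1 against talazoparib, and from 0 to 2 for decitabine in EGI-1. With only the 4 libraries compared, 1 member was called against talazoparib, 16 for the combination against vehicle (13 higher, 3 lower) and 4 for talazoparib against vehicle (3 higher and GDF15 lower). Leaving out each library in turn gave 4 to 8 calls for the combination against vehicle (12 with all libraries), 0 to 1 against talazoparib, 0 to 3 for decitabine in EGI-1, 0 to 2 for talazoparib and 5 to 12 for the difference between lines (14 with all). With 1 library left in a group, that library is assumed to vary like the others. DESeq2 gave 11, 3 and 14 calls for the combination, talazoparib and HUCCT1 decitabine.

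Whether the replicate numbers pair the samples cannot be settled from the counts, and in HUCCT1 there is only 1 pair of groups. Correlations of same-numbered deviations lay between -0.38 and 0.27 in EGI-1, and the single pair in HUCCT1 gave 0.37. A replicate block by title number gave 9 calls for the combination, 2 for talazoparib, 18 for HUCCT1 decitabine, 15 for the difference between lines and 25 for vehicle, and a block by the series in the library names gave 9 for the combination. With 2 libraries per group, small changes of members under 1 CPM in EGI-1 (BTG2, TNFRSF10C, SPATA18, CDIP1, EDA2R) were beyond what this depth can show.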
